A study of Mus musculus with 30 samples.

Results

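Strong peaks open in both cell states are the ATAC-seq peaks that stayed highly accessible while mouse epiblast stem cells (EpiSCs) were turned into definitive endoderm (DE). They were chosen by their own accessibility: a peak on chromosomes 1 to 19 was kept when it had at least 10 CPM (the count of a peak scaled to the sum of its library) in all 8 B6 libraries. The rule kept 10146 of the 158917 peaks of the table, or 6.38%, and 6.54% of the 155178 peaks on those chromosomes. Accessibility and its change between both states are therefore given below as descriptions, and calls made on them support nothing here. RNA, position, promoter sequence and accessibility in other strains were not used by the rule.

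EpiSCs are pluripotent cells that resemble the epiblast just before gastrulation, and DE is the germ layer that forms the lining of the gut and its organs. All B6 cells were C57BL/6 at passage p5-p10 and were labelled with no treatment. EpiSCs grew on feeder cells in N2B27-based medium with Fgf2, ActivinA and the Wnt inhibitor NVP-TNKS656. DE was derived from EpiSCs in chemically defined medium with CHIR99201, a Wnt pathway agonist, and ActivinA for 16 h, and then with ActivinA and LDN193189, a BMP receptor inhibitor, for 24 h; the labels also state a total of 46 h, and CXCR4+ cells were selected with magnetic beads. ATAC-seq covered EpiSC replicates 1, 4, 44 and 51 and DE replicates 2, 4, 44 and 51, and RNA-seq covered the same replicates and EpiSC replicate 2. EpiSCs of the strains PWK/PhJ (2 ATAC libraries) and DBA/2J (1 ATAC library) were grown as the B6 EpiSCs were and served only to look at the same sites in libraries that had not entered the rule. The labels call the replicates BioRep and do not say what separates them, so the p-values measure the spread between these samples.

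In ATAC-seq a transposase inserts sequencing adapters where DNA is not covered by nucleosomes. The start sites of widely expressed genes usually lie in CpG-rich DNA that is kept free of nucleosomes in most cell types, whereas accessible sites far from genes tend to differ between cell types. An open promoter permits transcription but does not set its rate, which depends on the factors bound there and at distal enhancers.

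The total ATAC count per library ran from 3751526 to 9311622, so the threshold stood for 37.5 to 93.1 counts, and the RNA totals ran from 22829536 to 66563933. Strong peaks took 32.8% ± 1.63 (SD, n = 4) of all ATAC counts in EpiSCs and 29.7% ± 1.02 (SD, n = 4) in DE. The summed RNA level of the 20 genes of the definitive endoderm list was 726 to 1701 CPM in EpiSCs and 13442 to 25061 CPM in DE. The sum of the 20 genes of the primed and general pluripotency list was 5830 to 7900 CPM in EpiSCs and 4592 to 5525 CPM in DE. Single genes could fall further than this sum. Pou5f1, a pluripotency factor, was at 982 to 1331 CPM in EpiSCs. In DE it was at 37.8 CPM in replicate 2 and at 2.46 to 6.34 CPM in the other libraries. The summed level of 15 feeder fibroblast genes was 99.9 to 3003 CPM in EpiSCs, highest in replicate 51, and 101 to 308 CPM in DE, and none of these genes had a strong peak within 2 kb of an end. The part of feeder cells in the results below was not tested, and in bulk RNA fewer cells of a type and less RNA per cell cannot be told apart.

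The promoters below are shown because their peaks stayed strong while the RNA of the gene was among the largest called rises or falls, without overlap between the states and at a mean level of 3 log2 CPM or more, or, for the last pair, because the gene is an endoderm regulator. Each window holds 280 bases, 250 before the annotated start and 30 from it, 5′ to 3′ on the strand of the gene, taken from RefSeq, build GRCm38.p6. Capitals mark letters of the 11 motifs searched on both strands. Ubp1 (chr9:113930898-113931177, plus strand), Dkk1 (chr19:30549467-30549746, minus strand) and Six2 (chr17:85688225-85688504, minus strand) are the genes with the largest rise in RNA by these filters among those with a window under a strong peak that held.
Ubp1: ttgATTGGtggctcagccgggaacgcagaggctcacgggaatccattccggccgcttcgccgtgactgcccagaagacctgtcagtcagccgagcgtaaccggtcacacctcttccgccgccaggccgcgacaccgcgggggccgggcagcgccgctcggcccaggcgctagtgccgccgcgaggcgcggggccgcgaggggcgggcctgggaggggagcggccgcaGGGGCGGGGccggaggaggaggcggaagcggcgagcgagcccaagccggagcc
Dkk1: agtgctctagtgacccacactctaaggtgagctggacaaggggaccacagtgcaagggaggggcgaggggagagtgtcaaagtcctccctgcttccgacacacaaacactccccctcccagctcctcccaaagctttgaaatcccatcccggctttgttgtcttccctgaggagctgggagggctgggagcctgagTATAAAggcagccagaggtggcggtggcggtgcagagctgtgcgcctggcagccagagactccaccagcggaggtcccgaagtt
Six2: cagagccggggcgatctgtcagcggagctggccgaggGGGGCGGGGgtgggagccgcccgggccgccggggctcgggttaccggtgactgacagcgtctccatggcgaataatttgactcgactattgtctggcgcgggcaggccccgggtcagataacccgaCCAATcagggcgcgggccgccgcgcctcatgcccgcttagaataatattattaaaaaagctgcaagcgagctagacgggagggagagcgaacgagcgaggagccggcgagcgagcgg
The windows of Ubp1 and Six2 hold the SP/KLF letters GGGGCGGGG and the NF-Y letters CCAAT or their complement ATTGG, and the Dkk1 window holds TATAAA, the TATA box letters. Zscan25 (chr5:145280221-145280500, plus strand), Atp10a (chr7:58657952-58658231, plus strand) and Btbd7 (chr12:102878413-102878692, minus strand) had the largest falls by the same rule.
Zscan25: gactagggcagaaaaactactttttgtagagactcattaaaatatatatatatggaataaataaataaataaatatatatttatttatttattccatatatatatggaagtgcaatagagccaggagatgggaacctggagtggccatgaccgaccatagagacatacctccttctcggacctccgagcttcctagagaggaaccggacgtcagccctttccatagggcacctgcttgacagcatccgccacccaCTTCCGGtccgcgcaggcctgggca
Atp10a: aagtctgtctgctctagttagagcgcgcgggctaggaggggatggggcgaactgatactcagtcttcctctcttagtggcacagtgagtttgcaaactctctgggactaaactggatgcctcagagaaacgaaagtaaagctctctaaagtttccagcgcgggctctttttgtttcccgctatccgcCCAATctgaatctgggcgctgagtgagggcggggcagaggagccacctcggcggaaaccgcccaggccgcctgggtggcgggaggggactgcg
Btbd7: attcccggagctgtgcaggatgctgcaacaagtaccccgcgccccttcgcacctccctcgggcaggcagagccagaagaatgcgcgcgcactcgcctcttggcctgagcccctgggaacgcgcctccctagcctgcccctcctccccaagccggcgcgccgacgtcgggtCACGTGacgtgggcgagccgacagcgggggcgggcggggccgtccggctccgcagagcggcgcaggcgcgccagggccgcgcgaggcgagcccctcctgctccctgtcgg
Their capitals are the ETS letters CCGGAAG read on the other strand in Zscan25, CCAAT in Atp10a and the E-box CACGTG in Btbd7. Hhex (chr19:37434591-37434870, plus strand) and Lhx1 (chr11:84525505-84525784, minus strand) encode homeobox factors of the endoderm and the anterior streak.
Hhex: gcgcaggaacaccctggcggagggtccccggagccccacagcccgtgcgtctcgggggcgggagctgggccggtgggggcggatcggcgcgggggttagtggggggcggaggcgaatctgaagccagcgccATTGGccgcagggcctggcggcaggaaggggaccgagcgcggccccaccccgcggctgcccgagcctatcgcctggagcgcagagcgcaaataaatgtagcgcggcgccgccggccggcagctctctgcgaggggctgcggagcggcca
Lhx1: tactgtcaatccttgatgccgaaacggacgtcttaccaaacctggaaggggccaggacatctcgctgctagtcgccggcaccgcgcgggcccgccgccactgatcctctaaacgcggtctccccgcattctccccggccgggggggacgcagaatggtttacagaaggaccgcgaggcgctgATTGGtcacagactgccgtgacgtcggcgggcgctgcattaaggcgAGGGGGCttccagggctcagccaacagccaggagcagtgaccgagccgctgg
Both hold ATTGG, and Lhx1 also holds AGGGGGC, part of the core of the CTCF motif. A match is a description of the letters and not a bound site.

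Strong peaks lay at genes far more often than peaks in general. Of the 10146 strong peaks, 5934 (58.5%) lay within 500 bp of either end of a RefSeq gene, against 14.7% of all peaks on the same chromosomes and 11.6% of the peaks that were not strong. On the end itself lay 46.0% of strong peaks and 6.31% of all peaks. Measured to annotated gene starts, on the chromosomes of the promoter table, 5399 of 9871 strong peaks (54.7%) had a start within 500 bp, against 11.4% of 150002 peaks. At the other extreme, 28.4% of strong peaks and 65.3% of all peaks had no start of that table within 10 kb. The promoter table lacks some genes on these chromosomes, such as Kif21b and Psmc3, so these shares can include peaks at unlisted starts. Measured to either end of any RefSeq gene, 14.7% of strong peaks and 45.2% of all peaks lay beyond 10 kb. The share at a gene end rose with strength: in 4 equal classes of mean CPM, from low to high, it was 51.0%, 54.3%, 58.8% and 69.9%. Of the strong peaks with a start within 500 bp, 1054 (19.5%) had starts of at least 2 genes there and 1032 (19.1%) had starts on both strands. Whether these starts point away from each other, as in a divergent promoter, was not checked. For all peaks with a start within 500 bp the shares were 13.8% and 13.3%.

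Strong peaks were also wide. Their median width was 347 bp, with an interquartile range of 277 to 443 bp, against 136 bp for the other peaks. Peaks of 300 bp or wider made up 66.9% of strong and 6.58% of other peaks. CPM is a count per peak and not per length, so a wide peak reaches the threshold more easily. Ranked by the lowest CPM per kb instead, the same number of peaks kept 7910 (78.0%) of the strong peaks, and 55.8% of that set lay within 500 bp of a gene end. By chromosome, strong peaks made up from 4.72% of peaks on chromosome 14 to 8.89% on chromosome 7.

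**Figure D1:**
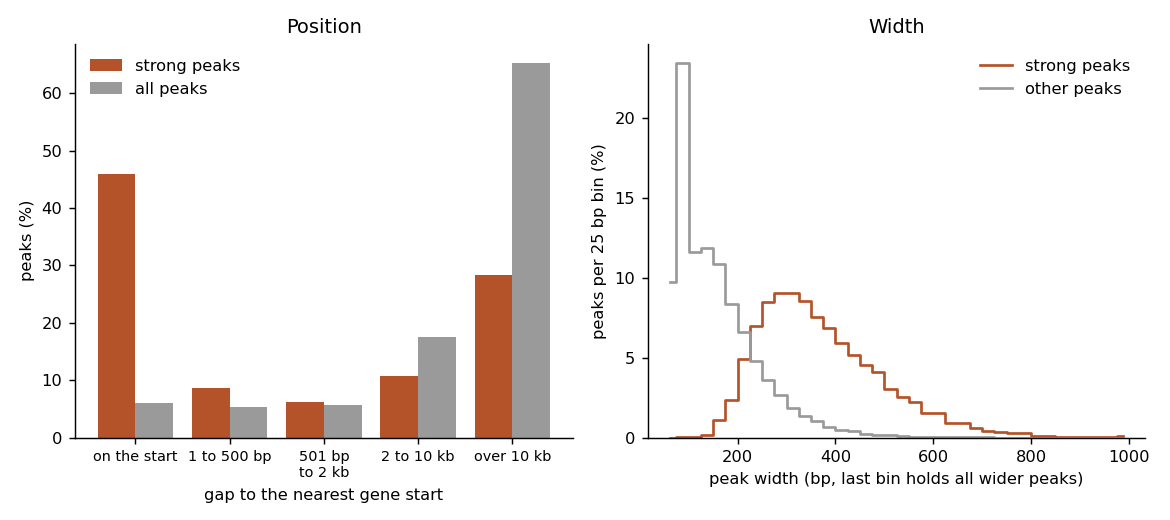
Left, share of strong peaks (n = 9871) and of all peaks (n = 150002) by the gap in bp to the nearest annotated gene start. Right, width in bp of strong peaks (n = 10146) and other peaks (n = 145032) in bins of 25 bp. The bars show 46.0% of strong peaks on a gene start against 6.07% of all peaks, and the curves peak at larger widths for strong peaks.

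The mean level of a strong peak over all libraries had a median of 24.6 CPM and a middle range from 18.7 to 34.9 CPM. The 5 highest were far outside it. The peak at chr17:39843034-39847015 inside Rn18s-rs5, an 18S ribosomal RNA copy, had 6854, 7373, 15175 and 6717 CPM in EpiSC replicates 1, 4, 44 and 51 and 7502, 7106, 5864 and 6461 CPM in DE replicates 2, 4, 44 and 51. EpiSC replicate 44 was the highest library there, and the other EpiSC libraries lay within the range of DE. The next highest was the neighbouring peak at chr17:39847510-39848787, with 2403 CPM on average. Repeated sequence of this kind can collect reads from many genomic copies, and how such reads were placed is not given in the sources used here. The remaining 3 lay at least 22669 bp from a gene end and had means of 424 CPM (chr11:109011642-109012114), 386 CPM (chr2:98666240-98667313) and 381 CPM (chr3:5860346-5860819). EpiSC replicate 44 was again the highest library at the peaks on chromosomes 11 and 3, with 844 and 681 CPM. Whether these 3 peaks lie in repeated sequence was not tested. Just inside the threshold were peaks in Phlpp1, Srebf1 and Zc3h7a, with 10.06 CPM in their lowest library. Just outside were peaks nearest to Bsg, Fen1 and Barhl1, with 9.99 CPM.

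Most strong peaks differed little between EpiSCs and DE. The fitted log2 change of DE against EpiSC had a median of 0.05 and an SD of 0.47 over strong peaks, and 7932 (78.2%) were under 0.5 in size, a change of less than 1.41-fold. A change of at least 2-fold was fitted for 494 strong peaks (4.87%). With the quasi-likelihood test of edgeR at a Benjamini-Hochberg adjusted p under 0.05, 1855 strong peaks were called higher in DE and 1207 lower, together 30.2%, against 57.6% of the 113870 peaks tested. The rule chose the peaks on these same values and fixes a low share of calls by its demand for a high level in both states, so these counts are no test of strong peaks and nothing is read from them. The share of higher calls among strong peaks depended on the scaling: it was 60.6% with TMM and 25.5% with total library size (930 higher and 2715 lower), where the median change of all peaks was -0.22.

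Among strong peaks, those at gene starts varied least. With a start within 500 bp, the SD of the change was 0.34, 87.3% were under 0.5 in size and 1.26% reached 2-fold. With no start of the promoter table within 10 kb, the SD was 0.59, 65.5% were under 0.5 and 10.1% reached 2-fold. This last class can include peaks at starts that the promoter table does not list. The rule bounds how low a strong peak can be in either state but not how high. The peak at chr1:130741345-130741854, inside AA986860, had 16.3, 22.3, 11.7 and 12 CPM in EpiSC replicates 1, 4, 44 and 51 and 80.9, 86.3, 85.8 and 70.4 CPM in DE replicates 2, 4, 44 and 51, a log2 change of 2.57. No library of one state reached the level of the other. A pair of peaks in and beside Vangl1, a planar cell polarity gene, had changes of 2.37 and 2.29. The RNA of AA986860 was 0.849 CPM ± 0.267 (SD, n = 5) in EpiSCs and 4.79 CPM ± 0.581 (SD, n = 4) in DE, a called rise of 2.49, and that of Vangl1 was not called (log2 change 0.48, adjusted p 0.225), both by the test over all genes in edgeR described for RNA below.

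The largest fall belonged to a peak that was also among the 3 widest. This peak of 1386 bp at chr15:80076124-80077510, 271 bp beyond an end of the ribosomal protein gene Rpl3, had 177, 154, 260 and 218 CPM in EpiSC replicates 1, 4, 44 and 51 and 15.6, 25.9, 13.8 and 28.8 CPM in the DE libraries, a log2 change of -3.09. Rpl3 carries small nucleolar RNAs in its introns. Another of the 3 largest falls was at a peak in Zfhx3, a zinc finger homeobox gene, at chr8:108722695-108723156, with 67.5 CPM ± 6.14 (SD, n = 4) in EpiSCs and 11.4 CPM ± 1.49 (SD, n = 4) in DE. The RNA of the genes beside these peaks was looked up after the peaks had been seen. Rpl3 (log2 change -0.51, adjusted p 0.161) and Zfhx3 (log2 change -0.45, adjusted p 0.204) were not called by edgeR.

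**Figure D2:**
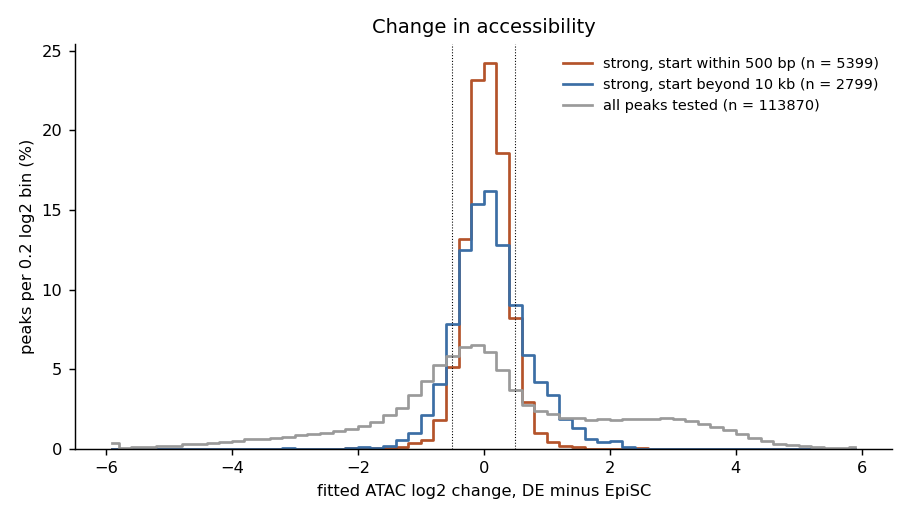
Fitted log2 change in accessibility, DE minus EpiSC, as the percentage of peaks in bins of 0.2, for strong peaks with a gene start within 500 bp, strong peaks with none within 10 kb, and all peaks tested; dotted lines stand at 0.5 in either direction. The curve of strong peaks at starts is the narrowest, with 87.3% between the lines against 65.5% for those with no listed start within 10 kb. Starts are those of the promoter table, which lacks some genes.

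The RNA of genes beside strong peaks changed about as often as that of genes in general, with fewer very large changes. Of 9029 RefSeq genes with a strong peak within 2 kb of an end, 6513 could be tested for RNA. Of these, 2368 rose and 1800 fell in DE (the quasi-likelihood test of edgeR, Benjamini-Hochberg adjusted p under 0.05 over the whole table of 14085 genes), together 64% against a background of 62%. Without DE replicate 2, 4299 genes near strong peaks (65.6%) were called, beside 63.3% of all genes. Without EpiSC replicate 51, 3935 (60.6%) were, beside 58.5% of all genes. With all libraries, higher calls were 36.4% of genes near strong peaks against 31.5% of all genes, and lower calls 27.6% against 30.6%. A called change of at least 2-fold was found for 41.8% against 45.3%, and one of at least 8-fold for 6.05% against 11.6%. The libraries of both states did not overlap for 57.8% of these genes, against 55.6% of all genes. Genes with only other peaks near their ends (n = 5713) had 8-fold calls in 15.4%, and genes with no peak there (n = 945) in 21.5%. The 3 classes differ in expression, with median log2 CPM of 5.28, 4.04 and 1.64. Within 3 equal classes of expression set over all genes, 8-fold calls made up 14.6%, 4.79% and 3.23% of genes beside strong peaks, against 21.7%, 7.92% and 5.24% of all genes from the low to the high class.

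Beside peaks that kept their height, RNA was called about as often as over all genes, with fewer large changes. Genes were taken as held when every strong peak within 2 kb of an end changed by less than 0.5 on the log2 scale. Among 5559 held genes in the RNA test, 1970 calls were higher and 1557 lower in DE, together 63.4% beside the background of 62%. A called change of at least 2-fold was found for 2245 of them, 1164 higher and 1081 lower, or 40.4% beside the background of 45.3%. Which direction had more genes depended on the setting, with 1072 higher and 1135 lower under RLE scaling, 983 and 1180 with total library size and 1018 and 1045 without DE replicate 2. Those of at least 8-fold numbered 304, 99 higher and 205 lower, or 5.47% beside the background of 11.6%. The median size of the RNA change was 0.86 for held genes and 1.03 for all genes on the log2 scale. Without DE replicate 2, the library with the highest Pou5f1 in DE, 2063 held genes (36.9%) were called with a fold of at least 2. Without EpiSC replicate 51, the library with the highest feeder sum, 2232 (40.3%) were. The share of all genes at that fold was not computed with a library left out, and the 45.3% belongs to the main fit. Whether held genes or all genes moved can therefore not be told from these shares. With held peaks required within 500 bp of the gene's annotated start, 1753 of 4435 genes tested (39.5%) were called at that fold. Of these, 929 were higher and 824 lower.

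**Figure D3:**
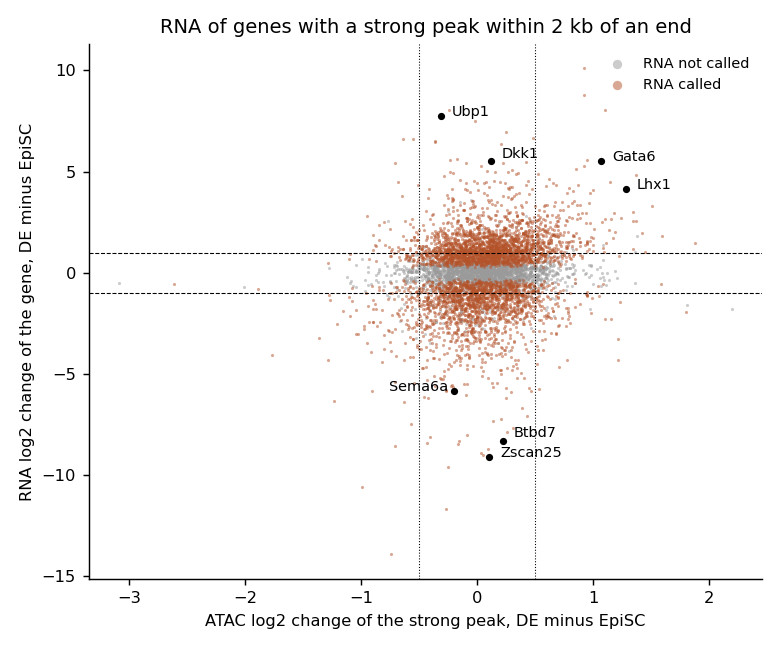
RNA log2 change of 6513 genes (vertical) against the log2 change of the strong peak within 2 kb of an end that changed most in size (horizontal), both DE minus EpiSC, with called and other genes in separate colours; dotted lines stand at 0.5 for ATAC and dashed lines at a 2-fold change of RNA. Between the dotted lines the points spread from -11.65 (Foxi3) to 8.05 (Gapdhs) in RNA.

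The genes with the largest rises beside held peaks included regulators of Wnt, BMP and Activin signalling. Of the 24 genes named for the largest rise or fall, 11 had a strong peak within 500 bp of their own annotated start. Col23a1, Prss12 and Isg15 had theirs more than 2 kb from the start, near the other end, and 10 had no entry in the promoter table. Dkk1 (ENSMUSG00000024868), a secreted Wnt antagonist, had 15.6, 1.26, 14.3, 7.87 and 0.702 CPM of RNA in EpiSC replicates 1, 2, 4, 44 and 51 and 725, 217, 253 and 260 CPM in DE replicates 2, 4, 44 and 51. The lowest DE library was above the highest EpiSC library, and DE replicate 2 stood above the other DE libraries. The peak on its start, at chr19:30549447-30549713, had 16.2, 19.9, 14.2 and 16.3 CPM in EpiSCs and 18.7, 16.9, 12.1 and 15.5 CPM in DE, so that the states overlapped. The RNA change was 5.51 on the log2 scale (SE 0.89, adjusted p 0.000374, edgeR quasi-likelihood), while that fitted for the peak was 0.12. Peak CPM is scaled to the library sum and the fitted peak change with TMM, so they can differ in size and sign. Frzb, another secreted Wnt antagonist, rose by 5.10 in RNA from 9.44 CPM ± 4.88 (SD, n = 5) to 324 CPM ± 28.8 (SD, n = 4), with changes of 0.13 and 0.30 at its peaks. Fzd8, a Wnt receptor, rose by 4.99. Bambi, a decoy receptor of the TGF-beta family, rose by 4.50, and Acvr2b, an Activin receptor, by 4.97.

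Several transcription factor genes were among the 12 largest rises. Six2 (ENSMUSG00000024134), a homeobox gene, had 2.81, 1.64, 1.30, 2.17 and 1.03 CPM of RNA in EpiSC replicates 1, 2, 4, 44 and 51 and 41.9, 78.5, 86.3 and 114 CPM in DE replicates 2, 4, 44 and 51. All DE libraries were above all EpiSC libraries. The peak over its start had 23.1 CPM ± 0.656 (SD, n = 4) in EpiSCs and 27.0 CPM ± 3.43 (SD, n = 4) in DE. The homeobox gene Rax rose by 5.64 and Myocd, a coactivator of muscle genes, by 4.94, from means of 0.441 and 0.623 CPM. Ubp1 (ENSMUSG00000009741), a factor of the grainyhead family, had 0.152, 1.49, 0, 0 and 0 CPM in EpiSCs and 66.1, 65.9, 67.1 and 74.8 CPM in DE, a log2 change of 7.73 (SE 1.05, adjusted p 0.000117, edgeR quasi-likelihood). DE was uniform and EpiSCs were near 0 except for replicate 2, and the fitted size depends on the prior count added by the fit. Ubp1 is known as a widely expressed gene, and whether its near-0 counts in EpiSCs come from the way reads were assigned to genes was not tested. Its peak, 8 bp from the start at chr9:113930598-113931140, was the reverse in direction, with 74.0 CPM ± 10.1 (SD, n = 4) in EpiSCs and 52.0 CPM ± 2.04 (SD, n = 4) in DE, a change of -0.31. Chga, a protein of secretory granules, rose by 4.97 in RNA with a peak change of -0.23. Col23a1, a transmembrane collagen, and Prss12, a serine protease, rose by 6.64 and 6.34.

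The largest falls were fitted for genes with almost no counts in DE. Zscan25 (ENSMUSG00000070420), a zinc finger gene, had 335 to 551 counts in the EpiSC libraries, and 0, 0, 4 and 0 counts in DE replicates 2, 4, 44 and 51. Its peak over the start, at chr5:145280353-145280635, had 30.4, 35.8, 27.7 and 33.7 CPM in EpiSCs and 30, 35, 26.9 and 26.7 CPM in DE. Atp10a, a phospholipid flippase, had 559 to 827 counts in EpiSCs and 3, 0, 0 and 11 in DE, and Btbd7, a BTB domain gene linked to cell adhesion, had 308 to 605 counts in EpiSCs and 0, 4, 0 and 5 in DE. The peak on the Btbd7 start was 15.5 CPM ± 4.10 (SD, n = 4) in EpiSCs and 16.0 CPM ± 4.80 (SD, n = 4) in DE. The RNA changes of Zscan25, Atp10a and Btbd7 were fitted at -9.09, -8.31 and -8.29 (adjusted p at most 1.59e-05, edgeR quasi-likelihood). With so few counts in DE these sizes depend on the prior count. Zscan25 and Btbd7 are expressed in many tissues, and whether the near-0 counts come from the way reads were assigned to genes was not tested. Wnt8a, a Wnt ligand of the early embryo, had 21 to 1622 counts in EpiSCs and 0 to 6 in DE, fitted at -8.41; its peak, at chr18:34549210-34549559, lay outside the annotated gene, and no start was available for it.

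Other genes among the largest falls kept some RNA in DE. Spry2 (ENSMUSG00000022114), a feedback inhibitor of FGF signalling, had 178, 206, 157, 208 and 234 CPM in EpiSC replicates 1, 2, 4, 44 and 51 and 5.14, 2.14, 2.07 and 1.55 CPM in DE replicates 2, 4, 44 and 51. Its RNA change was -6.21 and that of its peak, 441 bp from the start, was -0.43. Sema6a, an axon guidance ligand, fell by 5.83, from 273 CPM ± 33.3 (SD, n = 5) to 4.84 CPM ± 1.82 (SD, n = 4). The log2 change was -6.70 for Pcdh1, a protocadherin, -6.14 for Jade2, a PHD finger gene, and -5.91 for Kif21b, a kinesin. It was -5.79 for Adgrv1, an adhesion receptor, and -6.19 for Isg15, an interferon-induced ubiquitin-like gene. Each of these genes was called, and their libraries did not overlap between the states, as the choice of names required.

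**Figure D4:**
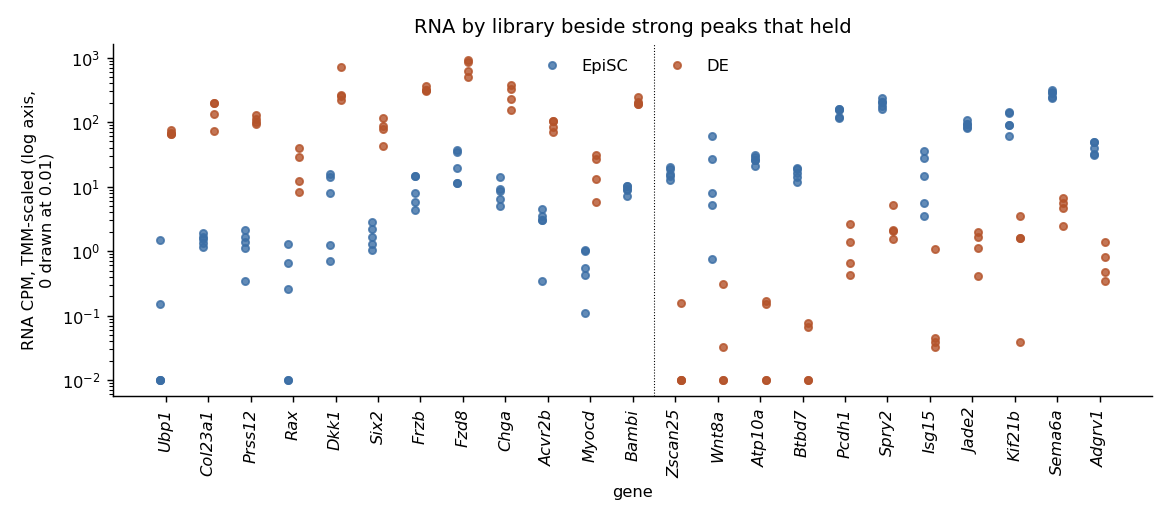
RNA level in TMM-scaled CPM (log axis, 0 drawn at 0.01) of the 12 genes with the largest rise and 11 of the 12 with the largest fall beside held strong peaks; each point is 1 library, 5 of EpiSCs and 4 of DE. The points of the states do not overlap for any gene, which the choice of genes required, and Zscan25, Wnt8a, Atp10a and Btbd7 reach 0 in DE.

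Of 20 definitive endoderm genes 7 had a strong peak within 2 kb of an end, and of these 6 were higher and 0 lower in RNA; of 20 genes of primed and general pluripotency 7 had one, with 3 higher and 3 lower. Over all members tested, with or without a strong peak, 18 endoderm genes were higher and 0 lower, and 4 pluripotency genes were higher and 13 lower. Gata6 (ENSMUSG00000005836), an endoderm GATA factor, had 15.5, 2.40, 12.6, 11.5 and 1.26 CPM of RNA in EpiSCs and 334, 416, 522 and 330 CPM in DE. Its peak, at chr18:11052262-11052687, had 26.1, 27.5, 20.0 and 23.8 CPM in EpiSCs and 38.0, 41.6, 46.8 and 52.0 CPM in DE, a change of 1.07, so that the groups did not overlap and every EpiSC library was above the threshold. Hhex rose by 5.58 in RNA with a peak change of 0.95, from 13.4 CPM ± 3.0 to 22.7 CPM ± 1.98 (SD, n = 4 each). Lhx1 rose by 4.12 in RNA with a peak change of 1.28, from 17.7 CPM ± 2.12 to 37.3 CPM ± 3.24 (SD, n = 4 each). These 3 peaks were not held by the definition above. Foxa2, the pioneer factor of endoderm, rose by 1.47 with a peak change of 0.29, and Otx2, Sall4 and Eomes rose by 1.83, 1.93 and 1.40, where the peaks of Otx2 and Eomes lay 7497 and 8704 bp from the annotated start. Fgf5, a growth factor of the primed state, rose by 2.91 in RNA; its peak on the start changed by 0.87 and a second one 1567 bp away by -0.28. Trh was called higher by 2.55, but its libraries overlapped.

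In the other direction, Zic2, a zinc finger factor of the epiblast, fell by 3.83 in RNA with a peak change of -0.40. Tdgf1, the Nodal co-receptor, fell by 2.24 with a peak change of 0.18. Etv5, a target of FGF signalling, fell by 1.86 with a peak change of -0.05. Cldn6 (log2 change -0.80, adjusted p 0.121) and Epcam (log2 change -2.49, adjusted p 0.111) were not called by the same edgeR test. Epcam was near the floor, at 0 to 4.95 CPM in EpiSCs and 0 to 0.90 CPM in DE, so its fitted size rests on few counts. Whether its low counts come from the way reads were assigned to genes was not tested. Without DE replicate 2, Cldn6 was called, at -1.49.

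Genes of housekeeping complexes with strong peaks moved in different directions. The counts in each list stand beside backgrounds of 31.5% higher and 30.6% lower over all genes tested. Ribosomal protein genes had a strong peak within 2 kb of an end in 48 of 78 cases, and of these 2 were higher, 31 lower and 15 not called. Their median RNA change was -1.26 against -0.01 over all genes tested. Over all 78 members, with or without a strong peak, 2 were higher and 56 lower, with a median of -1.39. Rps26 fell from 181 to 648 CPM in EpiSCs to 8.84 to 48.3 CPM in DE, a log2 change of -4.68, and the change of Rps13 was -3.66. Ribosomal protein genes share sequence with many processed pseudogenes, so how reads were divided among them is uncertain. Without DE replicate 2, 42 of the 48 were lower and 1 higher, and without DE replicate 4, 44 or 51, 26 were lower and 2 higher.

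Proteasome genes went the other way. Of 19 with a strong peak, 17 were higher, 0 lower and 2 not called, with a median of 0.82, and across the alternatives 16 to 18 were higher. Over all 31 members tested, with or without a strong peak, 27 were higher and 0 lower, with a median of 0.83. Psmb6, a catalytic subunit, had 218 to 284 CPM in EpiSCs and 975, 391, 413 and 483 CPM in DE replicates 2, 4, 44 and 51, a log2 change of 1.11. DE replicate 2 was the highest library, and without it the change was 0.72. Psmc3, an ATPase of the regulatory particle, rose by 1.10. Mitochondrial ribosome genes rose in 17 of 30 cases and fell in 1, with a median of 0.66 that was 0.31 without DE replicate 2. Over all 58 members tested, 32 rose and 1 fell. Mrps34 and Mrps12 rose by 1.97 and 1.87, and Mrps16 fell by 1.53. Aminoacyl-tRNA synthetase genes fell in 6 of 13 cases and rose in 0, led by Iars (-1.46) and Lars (-1.24). Over all 20 members tested, 6 fell and 2 rose.

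For polymerase, splicing and cell cycle genes the called share was near or below the background of 62%. Of 24 genes of RNA polymerase II and the general factors, 9 were higher, 6 lower and 9 not called; Polr2d rose by 1.55 and Gtf2e2 by 1.38, while Polr2a, the largest subunit, changed by -2.52 and Ercc2 by -1.72. Of 24 spliceosome genes 8 were higher, 6 lower and 10 not called; Sf3b5 and Srsf7 rose by 1.34 and 1.22, and Prpf8 and Snrpg changed by -2.74 and -2.13. Sf3b5 was 0.83 higher without DE replicate 2. Of 17 genes for factors that bind constitutive promoters, 9 were lower and 3 higher. Over all 30 members tested, with or without a strong peak, 14 were lower and 5 higher. Nfya, a subunit of NF-Y, had 82.5, 70.8, 69.9, 67.3 and 75.1 CPM in EpiSC replicates 1, 2, 4, 44 and 51 and 2.80, 2.69, 2.19 and 3.6 CPM in DE replicates 2, 4, 44 and 51. The groups did not overlap, and its change of -4.69 (SE 0.19, adjusted p 2.99e-07, edgeR quasi-likelihood) stood beside a peak over the start that changed by 0.25. Sp1 fell by 2.93 with a peak change of -0.12, Elf1 rose by 1.23, and Banp was called higher by 0.89 with overlapping libraries, a call that was lost when any of 5 libraries was left out. Of 6 insulator and cohesin genes 3 were lower, with Pds5b at -1.65 and Rad21 at -1.60. Over all 12 members tested, 9 were lower and 0 higher. Of 25 cell cycle and replication genes 7 were higher, 5 lower and 13 not called; the largest called changes were those of Ccne2 at 1.41, Gins2 at 0.95, Ccnd1 at -2.72 and Ccnd2 at -2.67. Over all members tested, 15 of 40 polymerase and general factor genes were higher and 9 lower. Of 35 spliceosome genes 10 were higher and 8 lower, and of 34 cell cycle and replication genes 8 were higher and 8 lower. The lists of streak and mesoderm genes and of feeder fibroblast genes had no member with a strong peak within 2 kb of an end. In the neuroectoderm list 1 of 7 genes had one, and its RNA was too low to test.

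**Figure D5:**
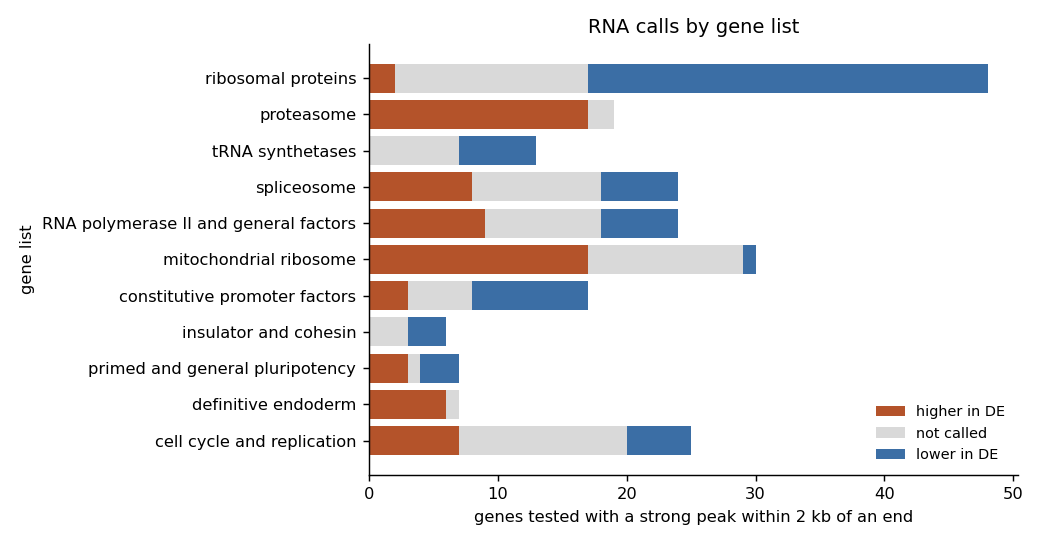
Number of genes tested in each list that had a strong peak within 2 kb of an end, split into higher in DE, not called and lower in DE by the edgeR test. Ribosomal protein genes are mostly lower (31 of 48) and proteasome genes mostly higher (17 of 19).

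Some genes with a strong peak at a start had few or no RNA counts. Of 5205 protein-coding genes with a strong peak within 500 bp of a start, 146 (2.81%) were under 1 CPM in all 9 RNA libraries, against 33.7% of the 15432 protein-coding genes of the promoter table, and 11 had no count in any library. Poln, a DNA polymerase, reached 0.534 CPM at most under a peak of 83.4 CPM on average. Chgb, a secretory granule gene, reached 0.745 CPM under a peak of 58.0 CPM, and Cadm2, a neural adhesion gene, 0.374 CPM under one of 42.4 CPM. Sec14l5, Capn15 and Cep290 were listed at 0 in every library with peaks of 68.9, 57.9 and 49.0 CPM. Cep290 is a widely expressed gene, so a listed 0 may be a gap in how reads were assigned and does not show that RNA is absent, which was not tested. These examples were chosen after their values were seen. Atp10a, Btbd7, Lix1l, Napepld, Pck2, Phlpp2 and Zscan25 were under 1 CPM in every DE library and at 10 CPM or more in every EpiSC library. The share of all genes with such a pattern was not computed, so nothing is read from these names about strong peaks.

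Promoters under strong peaks were GC-rich, as were promoters under other peaks. Of 31396 promoter windows of 300 bases in RefSeq, 5558 (17.7%) were covered by a strong peak over at least 150 bp, 3585 (11.4%) by another peak only and 70.9% by no peak. The median GC content was 62.7% under strong peaks, 61.3% under other peaks and 53% over all windows. The median ratio of observed to expected CpG was 0.80, 0.73 and 0.39 in the same order, and it was above 0.6 in 82.0%, 64.9% and 36.4% of windows. Several motifs were found more often under strong peaks than under other peaks. The ETS letters CCGGAAG were found in 23.4% under strong peaks, 15.4% under other peaks and 9.00% of all windows. The NF-Y letters CCAAT were found in 53.5%, 31.2% and 37.3%, and the SP/KLF letters GGGGCGGGG in 25.1%, 21.4% and 11.6%. AAGATGGCG of YY1 was found in 3.54%, 2.48% and 1.39%, TCTCGCGA of ZBTB33 and BANP in 3.24%, 1.51% and 0.956%, and ACTACAATT of ZNF143 in 1.24%, 0.307% and 0.408%. Other letters were about as frequent under both kinds of peak: the NRF1 letters GCGCATGCG in 4.07%, 3.91% and 1.74%, the CRE letters TGACGTCA in 3.78%, 3.77% and 1.83%, and AGGGGGC in 18.0%, 17.2% and 10.7%. CACGTG was found in 9.68%, 10.5% and 7.14%, highest under other peaks. TATAAA was found in 4.55%, 6.33% and 13.6%. GC-rich letters occur more often in GC-rich windows, and no test was made of these shares.

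Within the windows of held genes, shares were compared by the direction of RNA. CCGGAAG was found in 26.0% of 804 windows of genes at least 2-fold higher in DE, in 19.2% of 687 windows of genes at least 2-fold lower and in 27.3% of 2408 windows of the other genes. TATAAA was found in 6.09%, 3.06% and 3.61%, and CCAAT in 54.9%, 54.3% and 54.9%. The median GC contents were 62%, 63.7% and 62.3%.

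In EpiSCs of other strains most of these sites were open as well. In the peak table of EpiSC lines, 9961 strong peaks (98.2%) had a peak that covered at least 0.5 of their length. Of these, 98.4% reached 10 CPM in the DBA library, 95.2% in the numbered PWK library and 92.9% in the PWK library without a number, and 9029 (90.6%) reached it in all 3, beside 9.05% of all peaks of that table. The median levels of strong peaks in these libraries were 26.3, 25.4 and 24.1 CPM, in that order. Under 1 CPM in both PWK libraries were 17 strong peaks. The peak at chr9:4117338-4117568 had 29.3, 31.6, 27.3 and 29.3 CPM in B6 EpiSC replicates 1, 4, 44 and 51, 35.3 CPM in DBA and 0 in both PWK libraries. The peak at chr6:131609925-131610373, 903 bp from an end of Hmgb1l, had 18.8 to 41.2 CPM in B6, 20.4 CPM in DBA and 0.351 and 0 CPM in PWK. The B6 EpiSC libraries of that table are those used by the rule, so no strain was tested against B6. Whether reads of PWK aligned to the build mm10 as well as those of B6 was not tested. A count near 0 in PWK therefore need not mean that the site was closed.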

How the data were processed

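ATAC-seq and RNA-seq counts were used as the authors deposited them, as whole-number counts per peak and per gene. The submitters' processing notes name fastp, Bowtie2, MACS2, featureCounts, Salmon and DESeq2 and the build mm10; their versions, their settings and whether counting used strand are not given in the sources used here. ATAC CPM is the count divided by the sum of its column, and RNA CPM is scaled with TMM factors. Fitted ATAC changes use TMM factors, which were 1.03 to 1.13 in EpiSCs and 0.88 to 0.96 in DE. A fitted ATAC change can therefore differ in size or sign from the printed ATAC CPM. Depth per library is given in the report, and it limits low values most.

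Changes of DE against EpiSC were fitted with edgeR 4.0.16 in R 4.3.3 (quasi-likelihood F test, TMM, filterByExpr, robust, Benjamini-Hochberg over the whole table, called at adjusted p under 0.05), with B6 libraries of each assay only and no covariates. DESeq2 1.42.0, other scalings, other filters, each library left out, other distances and other thresholds were alternatives. The fits were also run on simulated counts in which few features changed, unlike these data. That run does not show how the scaling or the calls behave when most features change. A peak was near a gene when its interval lay within 2 kb of either end in the RefSeq table of GRCm38.p6. Starts came from the RefSeq promoter table, which has no windows on chromosome 18 and lacks some genes on other chromosomes. Of 29555 gene IDs, 29270 had a symbol. In the second peak table a strong peak was matched when at least 0.5 of its length was covered, and 17 columns of that table were not used.

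Named genes were the 12 largest rises and 12 largest falls among called, non-overlapping genes with held peaks, a mean log2 CPM of at least 3 and a symbol other than a gene model name, then the pluripotency and endoderm lists in full and up to 4 examples of each other list. Members and lists were chosen with earlier results of these data known. Other strains' RNA was not analysed here. Some genes and a peak that the rule names are not reported here.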

Additional observations from a re-analysis of the deposited data

Results flagged for a closer look

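Dixon's criterion was applied to 170 groups of 4 or 5 libraries. Each group held the values of a named gene or peak, or the share of ATAC counts in strong peaks, in one state. In 20 groups a library stood apart from the others of its state, which chance meets in about 5% of groups. That rate presumes normally distributed values, and some groups held counts near 0. DE replicate 2 was the highest DE library for Dkk1 (725 CPM, others 217 to 260), Psmb6 (975 CPM, others 391 to 483), Psmc3 (765 CPM, others 470 to 496), Mrps34 (240.4 CPM, others 89.0 to 103) and Mrps12 (137 CPM, others 53.2 to 64.8). The same library was highest for genes that fell in DE, with Rps26 at 48.3 CPM (others 8.84 to 14.6), Spry2 at 5.14 CPM (others 1.55 to 2.14), Isg15 at 1.07 CPM (others 0.0332 to 0.0455) and Wnt8a at 0.305 CPM (others 0 to 0.0332). EpiSC replicate 1 was lowest for Rps26 (181 CPM, others 592 to 648) and Sf3b5 (28.0 CPM, others 53.7 to 62.5). Ubp1 was at 1.49 CPM in EpiSC replicate 2 (others 0 to 0.152) and at 74.8 CPM in DE replicate 51 (others 65.9 to 67.1). Zscan25 was at 0.156 CPM in DE replicate 44 and at 0 in the other DE libraries.

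In ATAC, EpiSC replicate 44 was the highest EpiSC library at 4 of the 5 strongest peaks, with 15175 CPM in Rn18s-rs5 at chr17:39843034-39847015 (others 6717 to 7373), 4218 CPM at chr17:39847510-39848787 (others 2011 to 2166), 844 CPM at chr11:109011642-109012114 (others 361 to 392) and 681 CPM at chr3:5860346-5860819 (others 337 to 376). EpiSC replicate 4 was the lowest at chr2:98666240-98667313 with 299 CPM (others 432 to 445). DE replicate 51 was the highest DE library at the Zfhx3 peak, with 13.6 CPM (others 10.4 to 10.9).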

How the results depend on the processing

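The number of strong peaks was 20451 at a threshold of 5 CPM and 3968 at 20 CPM, and 10186 to 10761 with a library left out. The share at a gene end was 46.3% at 5 CPM, 70.1% at 20 CPM, 55.8% when ranked per kb, 46.0% on the end itself, 70.3% within 2 kb, 53.8% for protein-coding genes and 57.1% to 58.4% with a library left out. At 20 CPM, 2161 of 3367 genes near strong peaks (64.2%) were called, beside 62% of all genes. At that threshold 1265 of 3112 held genes (40.6%) were called at least 2-fold, beside 45.3% of all genes. With held peaks under 0.25 in size, 1409 of 3569 held genes (39.5%) were. With a library left out, 3808 to 4299 genes near strong peaks were called (58.7% to 65.6%), beside 56.8% to 63.3% of all genes. Held genes called at least 2-fold were then 2063 to 2362 (36.9% to 42.3%), and the share of all genes at that fold was not computed for these fits. With at least 10 counts in every library, 18012 of 44872 ATAC peaks were called. The share of higher calls among called strong peaks ran from 25.5% to 61.2% over the alternatives and was 32.4% without EpiSC replicate 51. Strong peaks open in all 3 other libraries were 89.7% at an overlap of 1 bp and 98.1% at 5 CPM. The starts and chromosome alternatives were chosen after seeing the data. Of 67 named genes, 63 kept call and direction in every alternative, 2, Banp among them, lost their call in some, and Cldn6 and Epcam gained one in some.

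Replicate numbers were not taken as pairs in the main fit, and a replicate block was fitted as an alternative. In RNA, same-numbered libraries correlated in their deviations by 0.0956, 0.135, 0.280 and 0.266 for replicates 2, 4, 44 and 51. RNA libraries of different numbers correlated by -0.246 to 0.0375, so each EpiSC library correlated best with its own number. The main RNA fit takes no account of this. In ATAC, same-numbered libraries correlated by 0.0219 to 0.0733 and others by -0.0482 to 0.0322. With the replicate block, 2014 strong peaks (19.9%) were called in ATAC against 2148 (21.2%) in the same libraries without it. Over all peaks tested these shares were 44.7% and 50.4%. Of genes near strong peaks, 3634 (56.0%) were called with the block and 3906 (60.2%) without it, beside 55.4% and 58.7% of all genes. Held genes at least 2-fold were 2111 (38.1%) with the block against 2170 (39.2%) without it, and the share of all genes at that fold was not computed there.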
